A study of Mus musculus with 8 samples.

Results

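Hypoxia response and glycolysis genes were examined in 8 primary mouse osteosarcomas, malignant tumours of bone-forming cells. The members were 34 genes listed by function: the HIF oxygen-sensing pathway, its well-known targets, and the enzymes and transporters of glycolysis. Of these, 32 were measured among the 19938 genes on the arrays. A gene was measured where a probe set carried its symbol alone, and the probe set with the highest mean was used. The 32 comprised 13 glycolytic enzymes and 19 other hypoxia genes. The enzymes Gpi1 and Eno1 are not analysed here.

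All mice were C57Bl6. In 4 tumours, the shRNA OS model, the p53 genotype was P53.1224, a transgenic short hairpin RNA that the series title calls lineage restricted. In the other 4, the Cre:lox OS model, it was P53fl/fl. Rb was Rbfl/+ in 3 tumours and Rb+/+ in 1 tumour of each model, shRNA OS replicate 2 and Cre:lox OS replicate 1. The shRNA OS tumours came from the tibia (replicates 1, 2 and 3) and the humerus (replicate 4). The Cre:lox OS tumours came from the tibia (replicates 3 and 4), the humerus (replicate 2) and the scapula (replicate 1). The labels name neither the promoter driving the hairpin or Cre nor the age of the mice, and the p53 transcript is not analysed here.

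Each array gave log2 expression values, so that a difference of 1 is a doubling, and precision was limited by having 4 arrays a model. Values of shRNA OS replicate 2 correlated less well with those of the other arrays (mean r 0.941) than the values of the remaining 7 did (0.961 to 0.968). The 7 measured bone-forming markers of 10 had mean log2 levels of 11.80 to 12.15 in shRNA OS and 10.98 to 11.70 in Cre:lox OS tumours. Phex held the largest difference of the 7 (3.32, shRNA OS minus Cre:lox OS), and their median difference was 0.24. Means were higher in shRNA OS for 5 of them and slightly lower for Col1a1 (-0.06) and Col1a2 (-0.04).

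Cells short of oxygen stabilise the alpha subunits of HIF, a transcription factor that oxygen-dependent prolyl hydroxylases otherwise mark for destruction. HIF binds the core ACGTG or GCGTG near its target genes, which raise glucose uptake, glycolysis, lactate export and vessel growth and restrain mitochondrial pyruvate oxidation. Bone grows in a low-oxygen marrow space, where HIF in osteoblasts couples bone formation to blood vessels, and many solid tumours, osteosarcoma among them, show strong glycolysis.

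The comparison of the models asks whether tumours arising with a p53 hairpin differ from those arising with floxed p53. The hypoxia and glycolysis genes had lower mean levels in shRNA OS in 28 of 32 cases, but no single member passed the test. Hk1, near 0, was the one member whose sign turned with another scaling. The median difference, shRNA OS minus Cre:lox OS, was -0.49 on the log2 scale over the members and 0.01 over all genes. It was -0.51 over the 13 enzymes and -0.44 over the other 19. Of the members 0 had a limma adjusted p under 0.05, and 4 genes of all tested did (0.0201%). At an unadjusted limma p under 0.05, 16 of 32 members were lower in shRNA OS, against a background of 6.02% of all genes, and 0 were higher, against 3.61%. The 16 were 8 of the enzymes and 8 of the others. In 8 members every shRNA OS tumour lay below every Cre:lox OS tumour, against 3.44% of all genes, and in 0 members did every one lie above, against 2%. In these pieces of tumour, fewer cells of a type and less RNA per cell cannot be told apart.

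**Figure D1:**
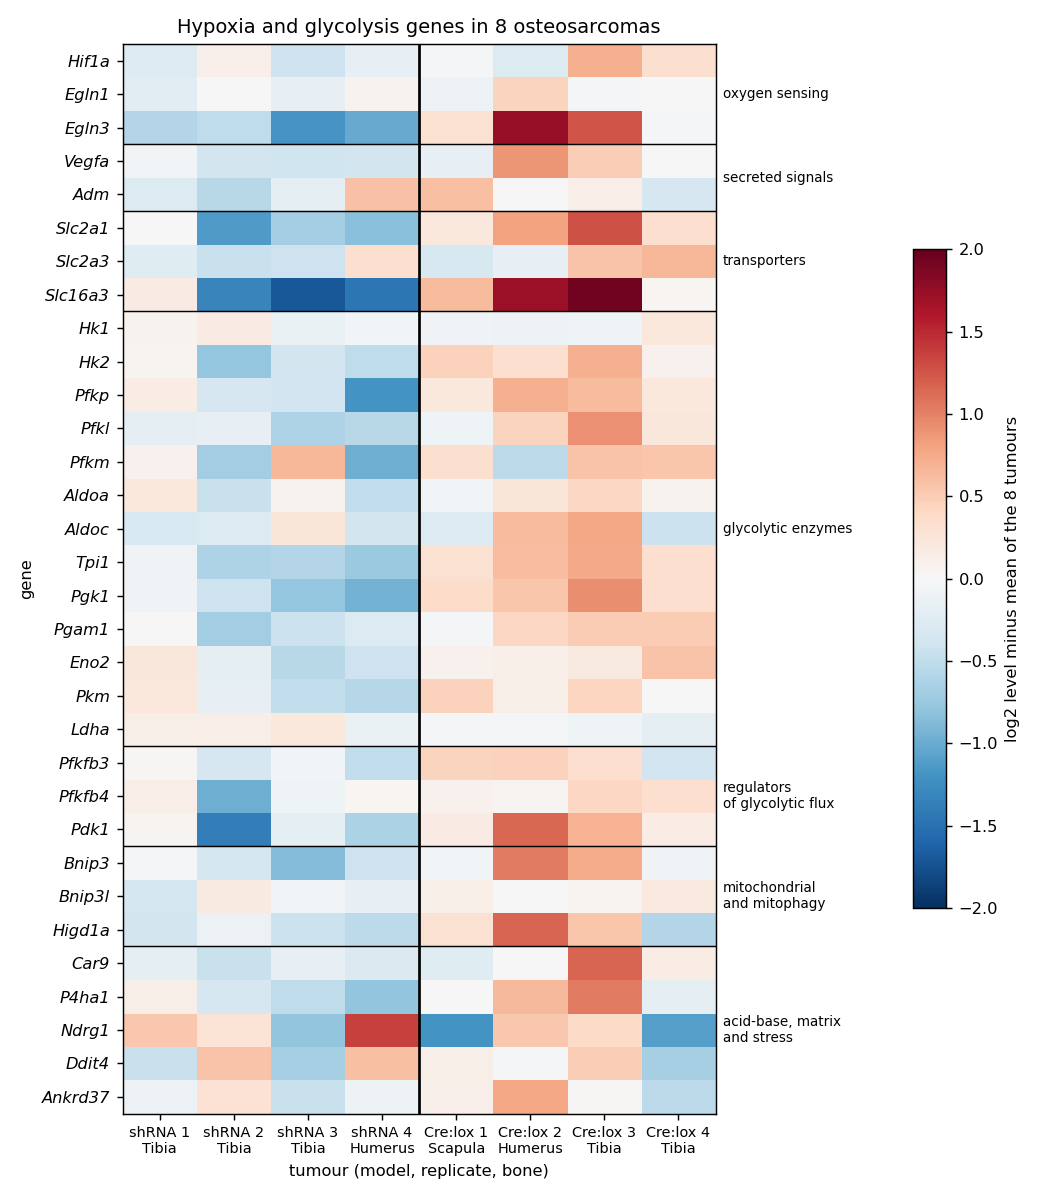
Log2 level of each of the 32 measured members (rows, grouped by role) minus its mean over the 8 tumours, with shRNA OS tumours left of the line and Cre:lox OS tumours right of it. Slc16a3 and Egln3 span the widest range of colour, Hk1 and Ldha stay near 0, and Cre:lox OS replicates 2 and 3 hold the highest level of 21 members.

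Among the oxygen-sensing genes, the hydroxylase Egln3, itself a well-known HIF target, had the largest difference between models, though it did not pass the adjusted threshold. Egln3 had log2 levels of 8.25, 8.33, 7.65 and 7.83 in shRNA OS replicates 1 to 4, against 9.15, 10.57, 10.10 and 8.81 in Cre:lox OS replicates 1 to 4. The models did not overlap, and the Cre:lox OS tumours were spread more widely (SD 0.82) than the shRNA OS tumours (SD 0.33). The difference was -1.64 (SE 0.36), or 3.12-fold lower in shRNA OS, with a limma adjusted p of 0.203. Hif1a, the oxygen-labile alpha subunit, had 10.43, 10.78, 10.26 and 10.52 in shRNA OS, against 10.66, 10.42, 11.40 and 11.00 in Cre:lox OS. These ranges overlapped, and the difference of -0.37 (SE 0.22) had an adjusted p of 0.648. Egln1, the main hydroxylase acting on HIF under normal oxygen, averaged 8.69 ± 0.14 in shRNA OS and 8.85 ± 0.25 in Cre:lox OS (SD, n = 4 each). Its difference of -0.16 had a 95% interval from -0.51 to 0.18.

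Vegfa, the main growth signal for blood vessels, had 10.05, 9.74, 9.71 and 9.74 in shRNA OS, against 9.95, 11.00, 10.60 and 10.11 in Cre:lox OS. Only shRNA OS replicate 1 reached into the Cre:lox OS range, above Cre:lox OS replicate 1. The difference of -0.60 (SE 0.23) had an unadjusted limma p of 0.0243 and an adjusted p of 0.428. Adm encodes adrenomedullin, a vessel-dilating peptide and HIF target. It had 7.02, 6.73, 7.11 and 7.88 in shRNA OS, against 7.88, 7.29, 7.42 and 6.95 in Cre:lox OS, with full overlap and a difference of -0.20 (SE 0.27).

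The transporters held the member with the largest difference of all 32. Slc16a3 encodes the lactate exporter MCT4, typical of glycolytic cells. It had 9.61, 8.13, 7.75 and 8.01 in shRNA OS, against 10.07, 11.16, 11.37 and 9.48 in Cre:lox OS. The models overlapped by 1 pair, shRNA OS replicate 1 above Cre:lox OS replicate 4. The difference was -2.15 (SE 0.50; 95% interval -3.26 to -1.03), or 4.43-fold lower in shRNA OS, with a limma adjusted p of 0.218. Slc2a1, the basal glucose importer GLUT1, had 10.06, 8.92, 9.37 and 9.22 in shRNA OS, against 10.26, 10.86, 11.33 and 10.38 in Cre:lox OS. These did not overlap, and the difference of -1.32 (SE 0.29), or 2.49-fold lower in shRNA OS, had an adjusted p of 0.203. Slc2a3, the high-affinity importer GLUT3, had 8.28, 8.07, 8.11 and 8.86 in shRNA OS, against 8.20, 8.36, 9.08 and 9.19 in Cre:lox OS. Its ranges overlapped and its difference was -0.38 (SE 0.27).

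**Figure D2:**
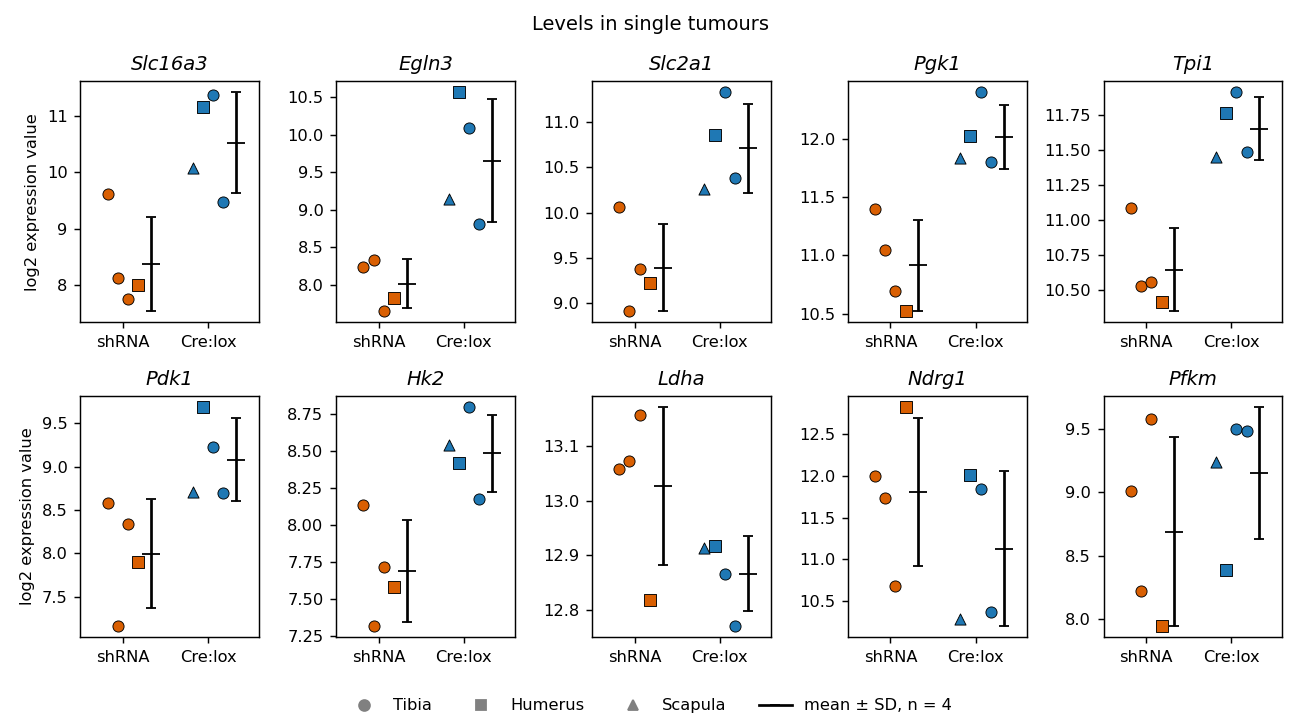
Log2 level of 10 members in single tumours (1 point each, shape by bone), shRNA OS left of Cre:lox OS, with the mean and SD of the 4 tumours of each model as a bar; each panel has its own axis, which does not start at 0. Egln3, Slc2a1, Pgk1, Tpi1, Pdk1 and Hk2 do not overlap between models, while Ldha, Ndrg1 and Pfkm do.

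The promoters of the genes with the 3 largest differences are shown because they carry the core letters that HIF recognises. Each line gives the 250 bases before the RefSeq start (GRCm38.p6), 5′ to 3′ on the gene's strand, with ACGTG or GCGTG on either strand in capitals (CACGT and CACGC are the other-strand forms). Slc16a3 is at chr11:120948817-120949066 (plus strand), Egln3 at chr12:54203875-54204124 (minus strand) and Slc2a1 at chr4:119108495-119108744 (plus strand).
Slc16a3: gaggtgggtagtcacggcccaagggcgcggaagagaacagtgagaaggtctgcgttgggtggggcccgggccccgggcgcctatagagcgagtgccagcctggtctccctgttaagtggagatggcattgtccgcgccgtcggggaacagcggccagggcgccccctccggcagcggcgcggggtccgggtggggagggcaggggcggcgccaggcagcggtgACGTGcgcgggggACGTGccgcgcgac
Egln3: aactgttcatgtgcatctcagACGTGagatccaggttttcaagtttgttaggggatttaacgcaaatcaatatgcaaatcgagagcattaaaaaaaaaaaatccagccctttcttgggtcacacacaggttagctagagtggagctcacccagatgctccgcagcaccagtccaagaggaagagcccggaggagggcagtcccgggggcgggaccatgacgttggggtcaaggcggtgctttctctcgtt
Slc2a1: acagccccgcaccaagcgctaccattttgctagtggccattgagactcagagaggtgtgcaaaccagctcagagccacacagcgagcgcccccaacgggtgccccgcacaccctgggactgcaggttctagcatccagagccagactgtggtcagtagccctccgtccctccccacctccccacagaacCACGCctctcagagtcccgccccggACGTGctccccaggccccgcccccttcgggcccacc

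In Slc16a3 both matches lie close to the start, beginning 27 and 14 bases before it. Egln3 has 1 match, 229 bases before its start, and Slc2a1 has 2, at 61 and 36 bases. A match is a run of letters in this window and not a measured binding site.

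Among the glycolytic enzymes, Pgk1 and Tpi1 had the smallest p. Pgk1, phosphoglycerate kinase, is an ATP-forming step of glycolysis. It had 11.40, 11.05, 10.70 and 10.52 in shRNA OS, against 11.84, 12.03, 12.40 and 11.80 in Cre:lox OS. The models did not overlap, and the difference of -1.10 (SE 0.22), or 2.14-fold lower in shRNA OS, had a limma adjusted p of 0.156. Its 3 probe sets gave near-identical values, 2 of them equal to the last digit, so they are not separate evidence. Tpi1, triosephosphate isomerase, had 11.08, 10.53, 10.56 and 10.41 in shRNA OS, against 11.45, 11.76, 11.91 and 11.49 in Cre:lox OS. The difference of -1.01 (SE 0.18), or 2.01-fold lower in shRNA OS, had an adjusted p of 0.134. This was the smallest of any member, and rank 42 among the 19938 genes. Without shRNA OS replicate 1, the highest shRNA OS tumour for Tpi1, the difference was -1.15 and the adjusted p 0.0437. The same omission took the count over all 19938 genes to 42, against 4 with every tumour kept.

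Of the 5 hexokinase and phosphofructokinase genes, which gate entry to the pathway, 3 were lower in shRNA OS at an unadjusted p, against 6.02% of all genes (4 with the RefSeq probe set of Hk1). Hk2, the inducible hexokinase that traps glucose in the cell, had 8.14, 7.31, 7.72 and 7.58 in shRNA OS, against 8.54, 8.42, 8.80 and 8.18 in Cre:lox OS. The ranges nearly touched without overlap, and the difference was -0.80 (SE 0.20; adjusted limma p 0.239). The phosphofructokinases carry out the committed step, and Pfkp, Pfkl and Pfkm are named for platelet, liver and muscle. Pfkp had 8.78, 8.31, 8.26 and 7.44 in shRNA OS, against 8.85, 9.35, 9.28 and 8.85 in Cre:lox OS (-0.88, SE 0.27, adjusted p 0.317). Pfkl had 8.99, 9.02, 8.56 and 8.63 in shRNA OS, against 9.10, 9.63, 10.09 and 9.41 in Cre:lox OS (-0.76, SE 0.22, adjusted p 0.298). Neither overlapped between models. Pfkm had 9.01, 8.22, 9.58 and 7.95 in shRNA OS, against 9.24, 8.39, 9.50 and 9.48 in Cre:lox OS, with wide overlap and a difference of -0.46 (SE 0.38).

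Pfkm and skeletal muscle markers were high or low in several of the same tumours. The 16 skeletal muscle markers had mean log2 levels of 8.21, 7.22, 9.97 and 7.69 in shRNA OS, against 9.75, 7.67, 9.94 and 8.63 in Cre:lox OS. shRNA OS replicate 3 was highest for Pfkm and for these markers, and shRNA OS replicate 4 and Cre:lox OS replicate 2 were low for both. Mean levels of 15 of the 16 markers were below those of Cre:lox OS in the shRNA OS tumours, and 1 was above. The median difference, shRNA OS minus Cre:lox OS, was -0.62, while the median SD within models was 1.22. None of the 16 markers had an unadjusted limma p under 0.05 between models, against 6.02% of all genes lower and 3.61% higher. Their part in the Pfkm, Aldoa and Hk2 levels was not tested.

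The other enzymes with lower means held smaller differences than Pgk1 and Tpi1. Pgam1, phosphoglycerate mutase, had 10.75, 10.04, 10.30 and 10.46 in shRNA OS, against 10.71, 11.15, 11.24 and 11.24 in Cre:lox OS. The difference of -0.70 (SE 0.19) had an adjusted limma p of 0.259. The models overlapped by shRNA OS replicate 1 alone, and the 2 other Pgam1 probe sets, identical in value, did not overlap. Eno2, the enolase typical of neurons, averaged 6.55 ± 0.34 in shRNA OS and 7.02 ± 0.23 in Cre:lox OS (SD, n = 4 each), a difference of -0.47. These Eno2 means lay below the array medians of 7.13 to 7.23. Pkm, pyruvate kinase of muscle and tumours, averaged 11.42 ± 0.36 in shRNA OS and 11.93 ± 0.22 in Cre:lox OS, a difference of -0.51. Both overlapped between models, with unadjusted limma p of 0.0374 and 0.029. The aldolases Aldoa and Aldoc differed by -0.33 (SE 0.19) and -0.35 (SE 0.29), and their ranges overlapped.

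Ldha, the lactate dehydrogenase chain that turns pyruvate to lactate, did not share the direction. It had 13.06, 13.07, 13.16 and 12.82 in shRNA OS, against 12.91, 12.92, 12.87 and 12.77 in Cre:lox OS. The difference of 0.16 (SE 0.12) had a 95% interval from -0.12 to 0.44, and the ranges overlapped through shRNA OS replicate 4 alone.

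Hk1, the housekeeping hexokinase, depended on the probe set. The probe set used, which lists no RefSeq transcript, had 12.62, 12.72, 12.43 and 12.50 in shRNA OS, against 12.49, 12.44, 12.47 and 12.77 in Cre:lox OS, a difference of 0.03 (SE 0.13). The only other probe set with Hk1 as its single symbol lists RefSeq transcripts and had 8.85, 8.81, 8.96 and 9.10 in shRNA OS, against 9.27, 9.25, 9.71 and 9.42 in Cre:lox OS. That one did not overlap and differed by -0.48 (SE 0.15; adjusted limma p 0.321). In all, 18 probe sets list Hk1, and 16 of them also list the ribosomal protein gene Rpl17.

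Promoters of Pgk1 and Ldha are printed as a pair, since both hold the HIF core letters. Pgk1 was lower in shRNA OS at an unadjusted limma p under 0.05, and Ldha was not. Capitals mark ACGTG or GCGTG on either strand, and CACGTG holds the first of these on both strands. Pgk1 is at chrX:106186850-106187099 and Ldha, at its first listed start, at chr7:46845554-46845803, both on the plus strand of GRCm38.p6.
Pgk1: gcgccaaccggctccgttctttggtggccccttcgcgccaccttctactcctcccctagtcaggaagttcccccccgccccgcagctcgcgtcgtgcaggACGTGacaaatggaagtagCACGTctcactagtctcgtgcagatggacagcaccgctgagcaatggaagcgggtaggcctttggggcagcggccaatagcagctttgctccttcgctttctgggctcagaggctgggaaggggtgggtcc
Ldha: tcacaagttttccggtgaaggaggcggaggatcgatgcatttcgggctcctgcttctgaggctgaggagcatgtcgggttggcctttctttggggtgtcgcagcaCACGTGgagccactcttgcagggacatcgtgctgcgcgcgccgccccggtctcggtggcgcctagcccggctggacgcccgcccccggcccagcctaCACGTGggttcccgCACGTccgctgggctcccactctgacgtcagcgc

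Pgk1 holds 2 matches and Ldha 5, among them 2 copies of CACGTG, each counted on both strands. RefSeq windows were found for 29 of the 32 members, and Slc2a3, Bnip3l and Ndrg1 had none in the table. At least 1 match stood in 27 of 29 members (93.1%), against 11226 of 27025 genes (41.5%). A gene was counted if any of its windows held a match. Vegfa, Hk1, Pfkm, Aldoa, Pkm and Pdk1 were counted although each also had a window with 0. The 29 members had 41 windows, and the 27025 genes had 32851, so the counting rule may not weigh alike on both. The members were listed partly as known HIF targets, so their share is not independent of that choice. The members' windows were also richer in G and C, with a median of 61.6% against 52.4% for all windows, and in CpG, with a median of 14 against 6. They were not set against promoters of like composition. Matches stood in 14 of the 16 members lower at an unadjusted p and in 13 of the 13 others with a window. Tpi1 and Eno2, both lower at an unadjusted p and separated by 2 protein-coding genes, had none.

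Of the regulators that steer glycolytic flux, Pdk1 differed most. Pdk1 encodes a kinase that shuts pyruvate dehydrogenase and so keeps pyruvate out of mitochondria. It had 8.59, 7.16, 8.34 and 7.90 in shRNA OS, against 8.71, 9.69, 9.23 and 8.69 in Cre:lox OS. The models did not overlap, by a narrow margin, and the difference was -1.08 (SE 0.33; adjusted limma p 0.320). Pfkfb3 and Pfkfb4 make the sugar bisphosphate that activates phosphofructokinase. Pfkfb3 had 8.90, 8.55, 8.83 and 8.39 in shRNA OS, against 9.33, 9.34, 9.21 and 8.51 in Cre:lox OS (-0.43, SE 0.21). Pfkfb4 had 8.17, 7.06, 7.95 and 8.07 in shRNA OS, against 8.12, 8.08, 8.44 and 8.36 in Cre:lox OS (-0.44, SE 0.24). Both overlapped between models, Pfkfb3 through a single low Cre:lox OS tumour.

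Bnip3 and Bnip3l encode receptors on mitochondria that mark them for removal. Bnip3 had 9.39, 9.06, 8.54 and 8.99 in shRNA OS, against 9.35, 10.44, 10.16 and 9.35 in Cre:lox OS. The difference of -0.83 (SE 0.28) had an adjusted limma p of 0.389, and the second probe set gave -0.63. Bnip3l averaged 11.98 ± 0.23 in shRNA OS and 12.17 ± 0.08 in Cre:lox OS (SD, n = 4 each). Its difference of -0.19 had a 95% interval from -0.51 to 0.13, so the pair of related receptors differed in size of difference. That contrast was not tested. Higd1a, a small protein of the respiratory chain, had 7.12, 7.38, 7.07 and 6.97 in shRNA OS, against 7.80, 8.66, 8.04 and 6.91 in Cre:lox OS. Cre:lox OS replicate 4 lay below every shRNA OS tumour, and the difference was -0.72 (SE 0.31; adjusted p 0.505).

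The remaining members act on acid-base balance, matrix and stress. Car9, a carbonic anhydrase on the cell surface and a classic hypoxia marker, had 6.29, 6.03, 6.30 and 6.17 in shRNA OS, against 6.23, 6.47, 7.63 and 6.61 in Cre:lox OS. It stood out in Cre:lox OS replicate 3 only, and the difference was -0.54 (SE 0.27; adjusted limma p 0.570). In every other tumour its level lay below the array medians, which ran from 7.13 to 7.23. P4ha1, a subunit of the enzyme that hydroxylates collagen, averaged 10.53 ± 0.38 in shRNA OS and 11.28 ± 0.56 in Cre:lox OS (SD, n = 4 each). Its difference was -0.75 (SE 0.29), with an unadjusted p of 0.0276 and an adjusted p of 0.441.

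The stress-responsive Ndrg1 and Ddit4 did not have lower means in shRNA OS. Ndrg1, a gene induced by hypoxia and many stresses, had 12.00, 11.73, 10.67 and 12.83 in shRNA OS, against 10.28, 12.01, 11.85 and 10.36 in Cre:lox OS. Its mean was higher in shRNA OS by 0.68 (SE 0.52; adjusted limma p 0.754), with wide overlap and the largest spread within models of all members. Ddit4, an inhibitor of mTOR signalling, had 9.04, 10.06, 8.83 and 10.08 in shRNA OS, against 9.61, 9.46, 9.98 and 8.83 in Cre:lox OS, a difference of 0.03 (SE 0.34). Ankrd37, an ankyrin-repeat protein and HIF target, had 7.10, 7.51, 6.78 and 7.12 in shRNA OS, against 7.32, 7.99, 7.24 and 6.69 in Cre:lox OS (-0.18, SE 0.26). Both of the last genes changed sign in some cases when tumours or settings were varied.

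Single tumours of a model differed in their levels of the members. Taken as the median deviation from the 8-tumour mean, the 13 enzymes were at 0.07, -0.33, -0.38 and -0.51 in shRNA OS replicates 1 to 4, against 0.08, 0.33, 0.58 and 0.22 in Cre:lox OS replicates 1 to 4. The 19 other hypoxia genes were at -0.12, -0.35, -0.42 and -0.29 in shRNA OS, against 0.10, 0.54, 0.55 and 0.00 in Cre:lox OS. shRNA OS replicate 1 was thus close to Cre:lox OS replicate 1 for the enzymes, and Cre:lox OS replicates 2 and 3 were highest for both sets. All genes together stayed between -0.09 and 0.04. Of the 32 members 28 were highest in a Cre:lox OS tumour (48.6% of all genes) and 27 lowest in an shRNA OS tumour (51.8%). The members also varied more between tumours of 1 model than genes at large, with a median SD of 0.41 against 0.26. Of the 32 members 27 lay above the median level of all genes, and that comparison was not matched for level. Nor was such a spread particular to the members. Over the other lists described here it ran from 0.20 (erythroid markers) to 1.22 (skeletal muscle markers), with 0.42 for further hypoxia targets.

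**Figure D3:**
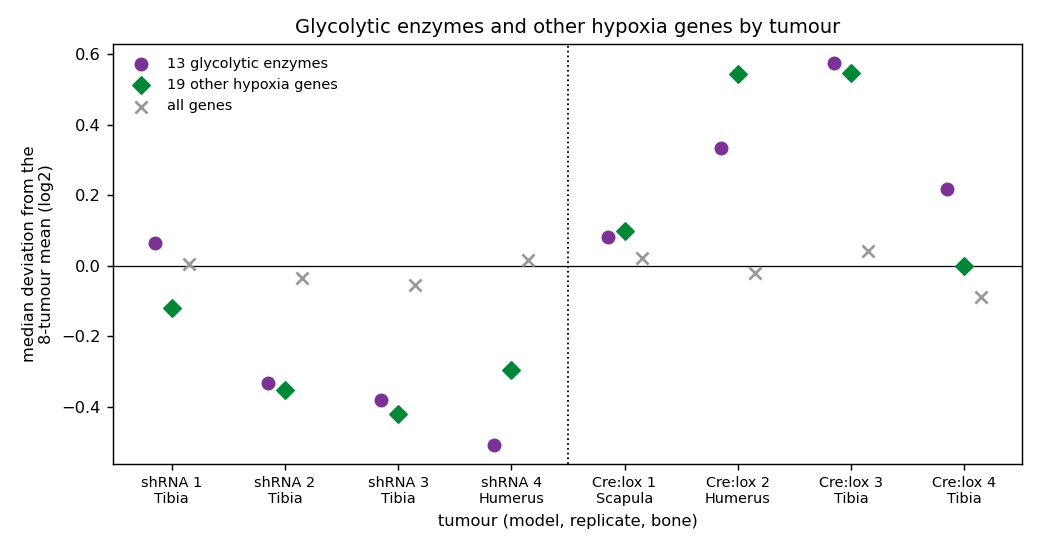
Median deviation from the 8-tumour mean (log2) in each tumour for 13 glycolytic enzymes, 19 other hypoxia genes and all genes, with shRNA OS left of the dotted line. Cre:lox OS replicates 2 and 3 are highest for both sets, and shRNA OS replicate 1 is the shRNA OS tumour nearest to Cre:lox OS.

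Markers of cell types and states varied between the same tumours. Of the 7 bone-forming markers, 3 (Sp7, Dmp1 and Phex) were higher in shRNA OS at an unadjusted limma p and 0 were lower. Over all genes, 3.61% were higher and 6.02% lower at that p, which is the background for each marker count here. The 10 macrophage markers had mean log2 levels of 11.24, 9.93, 10.17 and 9.48 in shRNA OS, against 10.12, 10.53, 11.43 and 11.57 in Cre:lox OS. Cre:lox OS tumours held the higher mean for all 10, and the median difference, shRNA OS minus Cre:lox OS, was -0.77. At an unadjusted p, 1 of 10, Itgam, was lower in shRNA OS. The median deviation of the macrophage markers from the 8-tumour mean was 0.80, -0.68, -0.50 and -1.09 in shRNA OS replicates 1 to 4. In Cre:lox OS replicates 1 to 4 it was -0.49, 0.02, 1.02 and 1.11. For the 32 members, that median was -0.01, -0.35, -0.42 and -0.42 in shRNA OS, against 0.09, 0.45, 0.56 and 0.08 in Cre:lox OS. The 10 measured immediate early and heat shock genes averaged 8.39, 7.89, 7.96 and 8.34 in shRNA OS, against 8.80, 8.94, 8.83 and 8.31 in Cre:lox OS, and 4 of 10 were lower in shRNA OS at an unadjusted p. Mean levels of the 8 erythroid markers lay between 6.42 and 6.79 in shRNA OS and between 6.35 and 6.74 in Cre:lox OS. The 10 neutrophil markers averaged 5.90 to 5.94 in shRNA OS and 5.75 to 6.17 in Cre:lox OS. Single members of these sets varied more than the means, for example by 1.37 between the highest and lowest tumour for erythroid Alas2 and by 1.76 for neutrophil Mmp8. The 10 endothelial markers averaged 9.45 to 9.92 in shRNA OS and 8.89 to 10.01 in Cre:lox OS. The 9 cell-division markers averaged 9.82 to 10.73 in shRNA OS and 10.21 to 10.60 in Cre:lox OS. In these last 2 sets 1 gene each had an unadjusted limma p under 0.05, Tek, higher in shRNA OS, and Pcna, lower. Log2 intensities have no true 0, so absence of a cell type cannot be read from them. The part of these cells in the members' levels was not tested.

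Other genes of the HIF machinery pointed both ways. Of 8 genes, 0 passed the adjusted threshold, 1 was lower (against 6.02% of all genes) and 2 were higher (against 3.61%) in shRNA OS at an unadjusted p, and the median difference was 0.15. Epas1, the HIF alpha subunit prominent in endothelium, had 10.29, 11.54, 11.51 and 11.95 in shRNA OS, against 10.54, 10.49, 9.30 and 10.46 in Cre:lox OS (1.12, SE 0.38, adjusted limma p 0.388). Arnt2, a partner of the alpha subunits, averaged 7.28 ± 0.24 in shRNA OS and 6.90 ± 0.07 in Cre:lox OS without overlap (0.39, SE 0.15). Hif1an, an asparagine hydroxylase that blocks HIF activity, differed by -0.48 (SE 0.21). Vhl, which targets hydroxylated HIF for destruction, differed by -0.26 (SE 0.12), also without overlap.

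Further hypoxia targets outside the 34 were read in the same fit. At an unadjusted limma p, 11 of 33 measured (33.3%, against 6.02% of all genes) were lower in shRNA OS. At that p 1 (against 3.61% of all genes) was higher. Of the 33, 0 passed the adjusted threshold, and the median difference was -0.37. Bhlhe41, a transcriptional repressor, averaged 6.23 ± 0.51 in shRNA OS and 7.56 ± 0.63 in Cre:lox OS (SD, n = 4 each), a difference of -1.33. Anxa2, a calcium-dependent membrane-binding protein, averaged 11.31 ± 0.23 in shRNA OS and 11.94 ± 0.22 in Cre:lox OS without overlap, a difference of -0.63. Stc2, a secreted glycoprotein, averaged 8.53 ± 0.23 in shRNA OS and 8.03 ± 0.39 in Cre:lox OS (0.50). Insig2, a regulator of sterol synthesis, differed by 0.23 (SE 0.23).

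Neighbouring branches of sugar metabolism were described likewise. Of 17 further glycolysis and lactate genes, 3 (17.6%, against 6.02% of all genes) were lower and 0 (against 3.61%) higher in shRNA OS at an unadjusted limma p, 0 passed the adjusted threshold, with a median difference of -0.26. Fbp1, which runs a step of glycolysis backwards, averaged 5.36 ± 0.15 in shRNA OS and 5.90 ± 0.19 in Cre:lox OS (-0.54). Pgm1, which links glycogen to glycolysis, averaged 8.72 ± 0.35 in shRNA OS and 9.68 ± 0.50 in Cre:lox OS (-0.95). Neither overlapped between models. Pdk2, a relative of Pdk1, differed by 0.48 (SE 0.32), and Hkdc1, a hexokinase-like gene, by 0.20 (SE 0.12). Of 6 pentose phosphate genes 0 (against 6.02%) were lower and 0 (against 3.61%) higher at an unadjusted limma p, with a median difference of -0.16. Among the 4 with lower means in shRNA OS, Rpia (-0.28) and Rpe (-0.20), isomerase and epimerase of the pathway, had the smallest p. The 2 with higher means were Pgls (0.20), its lactonase, and Tkt (0.10), its transketolase.

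Citric acid cycle and respiratory chain genes centred near 0. Of 22 measured, 3 (13.6%, against 6.02% of all genes) were lower and 1 (against 3.61% of all genes) was higher in shRNA OS at an unadjusted limma p, 0 passed the adjusted threshold, and the median difference was 0.03. Ndufa9, a subunit of the first respiratory complex, averaged 9.83 ± 0.16 in shRNA OS and 10.33 ± 0.12 in Cre:lox OS (-0.50). Fh1, fumarate hydratase, averaged 9.69 ± 0.14 in shRNA OS and 10.14 ± 0.22 in Cre:lox OS (-0.44). Ppargc1a, a coactivator that drives mitochondrial growth, averaged 6.43 ± 0.32 in shRNA OS and 5.79 ± 0.15 in Cre:lox OS (0.64). These 3 did not overlap between models. Cyc1, a cytochrome subunit, differed by 0.59 (SE 0.32).

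Bone site was compared with the model as a covariate, in 5 tibial tumours and 3 of the humerus or scapula. The median difference, tibial minus other bone, was 0.10 over the members and -0.03 over all genes. It was 0.19 over the 13 enzymes, and all 13 were higher in tibial tumours in this fit. Over the 19 other hypoxia genes it was -0.08, with 8 higher and 11 lower. Of all 19938 genes, 8875 were higher. No member and no gene of all passed the adjusted threshold (0%). At an unadjusted limma p 1 member was higher in tibial tumours, against 2.32% of all genes, and 1 was lower, against 3.33%. The median over the members turned to -0.08 without the covariate, so its sign rests on that choice. The same holds for some enzymes, such as Tpi1, whose plain mean was 11.11 in tibial tumours and 11.21 in the others.

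The member higher in tibial tumours was Pfkm, with 9.16 ± 0.57 in the 5 tibial tumours and 8.52 ± 0.66 in the 3 others (SD). With the model as a covariate the difference was 0.81 (SE 0.32; unadjusted limma p 0.0317, adjusted p 0.831). The 16 muscle markers had a median difference of 0.65 in that fit, 0 of them at an unadjusted p. The member lower in tibial tumours was Adm, with 7.05 ± 0.25 in tibial tumours and 7.68 ± 0.34 in the others. Its difference was -0.63 (SE 0.22; unadjusted limma p 0.0184, adjusted p 0.764). The macrophage markers differed by site as well, 9 of 10 being higher in tibial tumours at an unadjusted p against 2.32% of all genes, and their part in these results was not tested. Hif1a (0.37, SE 0.21), Car9 (0.46, SE 0.26), Pfkp (0.41, SE 0.27) and Pgk1 (0.32, SE 0.22) were nearest after these, none past an unadjusted p of 0.05.

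**Figure D4:**
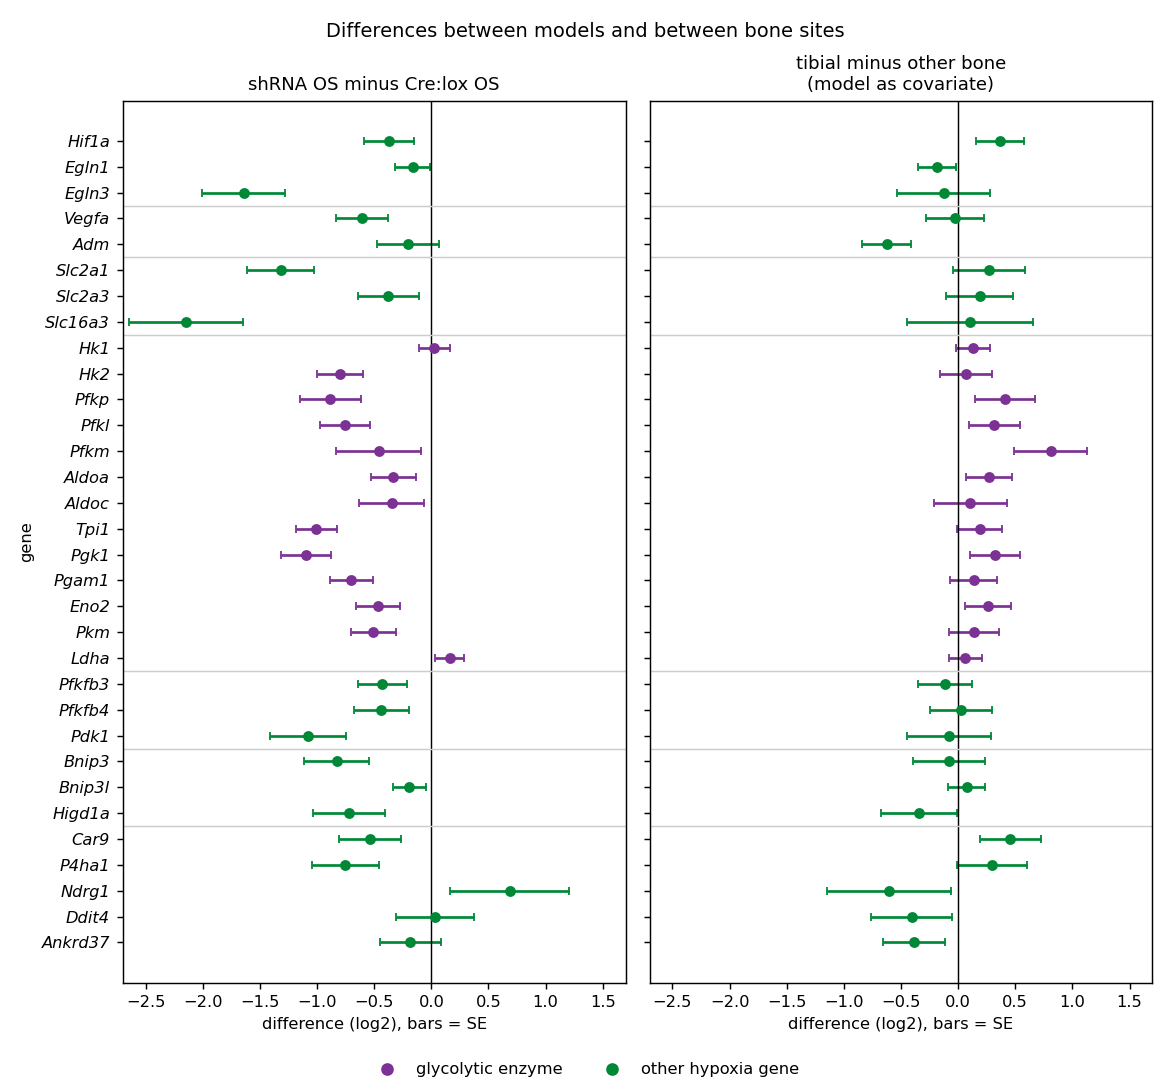
Log2 differences of the 32 members with their standard errors, shRNA OS minus Cre:lox OS on the left and tibial minus other bone on the right, with enzymes and other hypoxia genes in 2 colours. Between models 28 of 32 points lie left of 0. Between sites the 13 enzymes all lie right of 0 and the 19 other hypoxia genes lie on both sides. There 2 members, Pfkm and Adm, lie farthest out.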

How the data were processed

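RNA of 8 primary osteosarcomas was purified after Trizol lysis, biotin-labelled and measured on 1-colour arrays, per the labels' protocols. The authors deposited log2 values made with RMA; the submitters' processing notes name this method and the build mm9. The version of RMA is not given in the sources used here. RMA puts arrays on a common scale, yet the interquartile range of single arrays still ran from 2.59 to 3.19, which can enter every comparison.

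Of 35556 probe sets, 21789 had 1 gene symbol in the platform annotation. The one with the highest mean per gene gave 19938 genes. Differences were tested with limma 3.58.1 (lmFit, eBayes) in R 4.3.3 over all genes, adjusted after Benjamini-Hochberg, at 0.05. All adjusted and unadjusted p-values of single genes come from these fits. No covariate entered the model comparison; the model was the covariate for bone sites. The procedure was tested on simulated data. Replicates are separate tumours by their titles, so p-values measure the spread between tumours.

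Members, roles, pathway and marker lists were chosen with earlier results of these data known, so no p is given for any list. All members are named. Of each pathway list the 2 genes of smallest p per direction are named, unless one passed the adjusted threshold. Promoters are RefSeq windows of GRCm38.p6, credited to that build and searched with Python 3.11.15. Alternatives covered normalization, centring, filters, probe sets, variance prior, array weights, covariates, subsets and leaving out each tumour. The p53 transcript and the effect of Rb genotype are not analysed here.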

Additional observations from a re-analysis of the deposited data

Results flagged for a closer look

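In 4 of 64 checks of a member within a model, 1 tumour lay far from the other 3 of its model, where chance gives about 1 in 20. In 32 further checks over the 5 tibial tumours 0 stood apart in this way. The gap to the nearest tumour is given as a share of the whole range of the model, and it exceeded Dixon's 95% critical value. For Vegfa it was 0.895, with shRNA OS replicate 1 at 10.05 and the other shRNA OS tumours between 9.71 and 9.74. For Hk1 it was 0.858, with Cre:lox OS replicate 4 at 12.77 and the others between 12.44 and 12.49. For Aldoc it was 0.849, with shRNA OS replicate 3 at 8.32 and the others between 7.71 and 7.80. For Pfkfb3 it was 0.848, with Cre:lox OS replicate 4 at 8.51 and the others between 9.21 and 9.34. Whether the site difference itself differed between models was examined with a limma interaction term. In that fit 1 tumour, shRNA OS replicate 4, stood for all shRNA OS tumours outside the tibia. No p-value or count from it is therefore read here.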

How the results depend on the processing

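Between models, 28 of the 32 members kept 1 sign under every alternative run. Tpi1 had an adjusted limma p of 0.0437 and a difference of -1.15 without shRNA OS replicate 1, so the count past the adjusted threshold ranged from 0 to 1 when single tumours were left out; that setting called 42 of 19938 genes, against 4 with all tumours. The count of members lower without overlap was 14 in tibial tumours only (3 against 2, background 10.2%), and 8 to 16 when single tumours were left out, 16 without shRNA OS replicate 1 (background 7.79%); smaller groups overlap less by construction. Members lower at an unadjusted p numbered 11 to 16 when single tumours were left out, against 4.01% to 8.09% of all genes. The members at an unadjusted p between sites numbered 1 among genes above the median level, 5 with array weights and 1 with no covariate. They numbered 1 to 3 when single tumours were left out. For sites, the share of all genes at that p was not taken in these settings. Those site counts are therefore not read as a result about the members. Hk1 turned to -0.0023 with median centring, -0.2262 with the mean of probe sets, -0.0057 with site as a covariate, -0.0433 in Rbfl/+ tumours, -0.0318 in tibial tumours and -0.48 with its RefSeq probe set, an alternative chosen after seeing the data. In Rbfl/+ tumours Adm turned to 0.1151 and Ddit4 to -0.1085, and in tibial tumours Ddit4 turned to -0.0961 and Ankrd37 to 0.1654. When single tumours were left out, Hk1 ranged from -0.0244 to 0.1032, Ddit4 from -0.1832 to 0.256, Ankrd37 from -0.3894 to 0.0437, and the site difference of Pfkp from -0.0371 to 0.6323. The cause of these turns was not tested. No paired analysis was possible because replicate numbers only follow accession order and link no tumours across models.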
